A study of Mus musculus with 12 samples.

Results

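Transcript levels in wild-type (WT) livers were compared between the sexes, using 3 female and 3 male C57BL/6 mouse libraries out of a series of 12. The comparison was made over genes on autosomes, so that genes carried on the X or Y chromosome did not enter its counts over all genes. Counts within gene lists take every tested member, including a few that are X-linked or were not placed on a chromosome. Of 19852 entries in the deposited table, 16439 were placed on an autosome. Of these, 9795 reached an RPKM (reads scaled to transcript length and library size) of at least 0.5 in at least 3 of the 12 libraries and were tested. All mice were 20 weeks old. The WT mice were control littermates of ARE-Del mice, which are transgenic and express interferon-gamma (IFN-gamma) chronically. ARE-Del mice gave the other 6 libraries (3 female and 3 male). The extraction protocol of all 12 samples names ARE-Del-/- mice, and the WT groups were therefore taken from the genotype label. The WT groups have no transgene, treatment or deletion in their labels.

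Liver is among the tissues with the strongest sex differences in rodents. The pituitary releases growth hormone in pulses in males and more continuously in females, and hepatocytes read that pattern through the growth hormone receptor, the kinase JAK2 and the transcription factor STAT5B. Repressors such as BCL6 in males and CUX2 in females, and liver factors such as HNF4A, HNF6 and FOXA, act with STAT5B. The best known target genes encode cytochromes P450, sulfotransferases and other enzymes that modify steroids and foreign compounds, and the major urinary proteins (MUPs), pheromone carriers that male mice excrete.

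The libraries went with their labels. Xist, the RNA that coats the inactive X chromosome, was at 33 to 38.1 RPKM in the female WT libraries and at most 0.00306 RPKM in the male ones, while the Y-linked Ddx3y was at 9.56 to 10.5 RPKM in males and listed at 0 in females. Summed RPKM ran from 173476 to 190533 per library, and relative depth, estimated from the steps between low values, from 0.908 to 1.36 times that of female WT 1. Albumin, the chief secreted protein of hepatocytes, took 13.8% to 15.6% of summed RPKM in females and 9.54% to 9.93% in males. The first principal component of the 6 libraries held 75.3% of the variance and separated the sexes. Libraries correlated across genes at r = 0.989 to 0.994 within a sex and at 0.954 to 0.969 between the sexes. Apart from the stated n = 3, no label ties a sample to its own animal, so p-values measure only the spread between these samples. The libraries are of whole liver, so fewer cells of a type and less RNA per cell cannot be told apart.

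Sex differences were found in 948 autosomal genes, or 9.68% of those tested, at an adjusted p under 0.05 (limma on log2(RPKM + 1), Benjamini-Hochberg over all 10568 tested genes). These are referred to as called. Of them, 657 were higher in females (6.71%) and 291 higher in males (2.97%). Most differences were small: the median was 0.446 on the log2 scale for calls higher in females and -0.479 for calls higher in males. A difference of at least 1 was reached by 79 genes higher in females and 57 higher in males, and one of at least 2 by 29 and 22. Values of the 3 females and the 3 males did not overlap for 28.3% of tested autosomal genes, among them 651 of the calls higher in females and 288 of those higher in males.

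The balance between the sexes depended on the scaling. Females held 69.3% of the calls with the values as deposited, 53.0% after median-of-ratios scaling and 42.1% after quantile normalization, although neither moved the median of all genes by more than 0.1. Among differences of at least 1 on the log2 scale the counts were 79 and 57 as deposited, 70 and 64 after median-of-ratios scaling and 66 and 62 after quantile normalization. The number of calls also rested on single libraries: it was 488 without male WT 1, 602 without female WT 1 and 1033 without female WT 2. Calls higher in females fell to 305 and 373 without the first 2 of these libraries. Calls higher in males were 183 without male WT 1 and 191 without female WT 2.

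Called genes were more frequent among abundant transcripts. The share rose from 6.69% of autosomal genes with a mean below 1 RPKM to 18.4% between 20 and 100 RPKM, 31.8% between 100 and 1000 RPKM and 44.0% of the 25 genes above 1000 RPKM. The log2(RPKM + 1) scale understates ratios of low genes, and its part in this rise was not tested. With a pseudocount of 0.1 RPKM, 1072 genes were called. Of these, 161 were at least 1 higher in females on the log2 scale and 96 at least 1 higher in males. With the pseudocount of 1 RPKM used here those counts were 79 and 57, so they depended on it. Called genes higher in males took 13.9% to 17.6% of summed RPKM in male libraries and 4.98% to 6.18% in female libraries. Those higher in females took 29.3% to 32.5% in females, albumin included, and 19.2% to 20.1% in males. The counts of list members called, given below, were not compared with genes of like level.

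**Figure D1:**
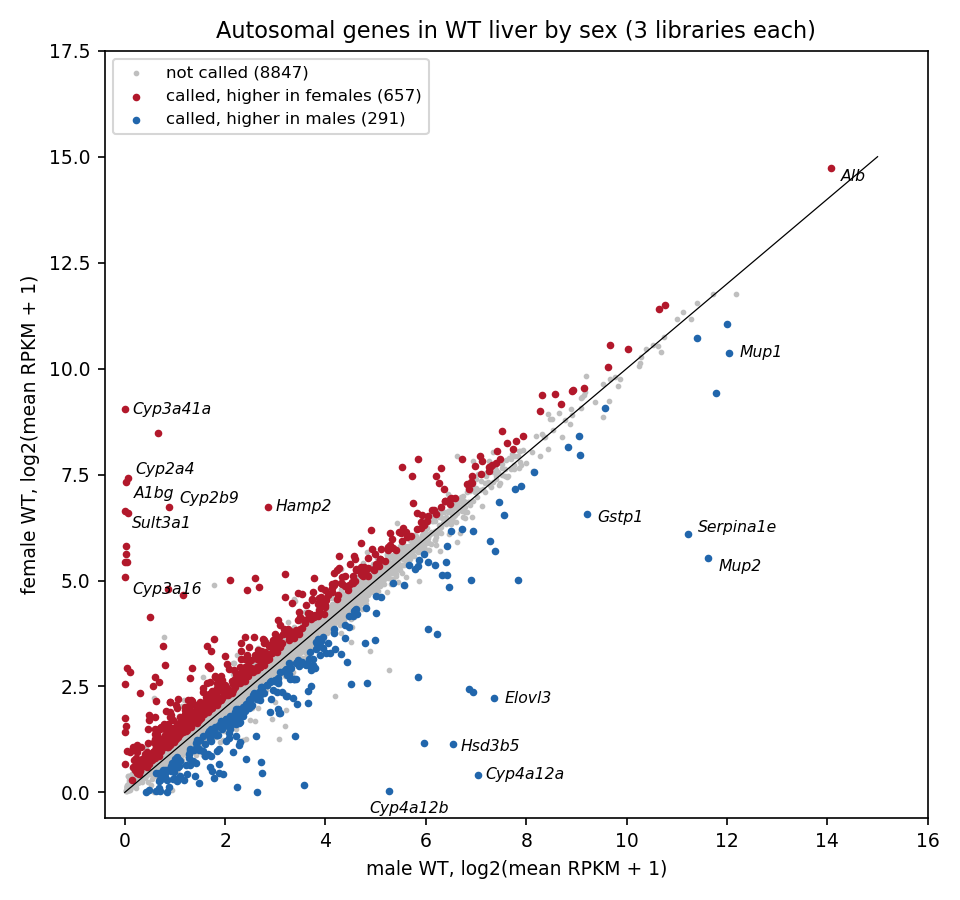
Mean RPKM of each tested autosomal gene in male WT (x axis) and female WT (y axis) livers, both as log2(mean RPKM + 1), with 3 libraries in each group and the diagonal marking equal levels. The 657 called genes higher in females (red) and 291 higher in males (blue) lie mostly close to the diagonal, while Cyp3a41a, Cyp2a4 and A1bg lie along the left axis and Cyp4a12b along the bottom.

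Transcripts found in female livers at high levels and in male livers near 0 were mainly of enzymes for steroids and foreign compounds. Cyp3a41a, a cytochrome P450 of the CYP3A subfamily, was at 537, 888 and 157 RPKM in the 3 females and listed at 0 in every male. Cyp2a4, which encodes a steroid 15-alpha-hydroxylase, was at 188, 186 and 138 RPKM in females and at 0.0668, 0.05 and 0.0222 in males. A1bg, which encodes a plasma glycoprotein of the immunoglobulin superfamily, was at 152, 217 and 106 RPKM in females and at 0.0235, 0.0176 and 0.0312 in males. The 15 genes named each way were picked from calls in which the sexes do not overlap, so their lack of overlap is no further support. The female minus male differences on the log2 scale were 8.72 ± 0.44 (SE) for Cyp3a41a, 7.35 ± 0.16 for Cyp2a4 and 7.22 ± 0.37 for A1bg, with limma adjusted p of 8.11e-08, 1.79e-11 and 1.04e-07.

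The sulfotransferase Sult3a1 was at 109, 77.8 and 110 RPKM in females and listed at 0 in males, a difference of 6.62 ± 0.12 (adjusted p = 2.58e-12, limma). The cytochrome Cyp2b13 was nearly the same in every female, at 99.8, 93.3 and 94.8 RPKM, and at 0.0148, 0.0221 and 0.118 RPKM in males. Its neighbour Cyp2b9 was at 113, 110 and 90.8 RPKM in females and at 0.409, 1.01 and 1.10 in males, which gives a ratio of means of 125. These genes too were picked with no overlap between the sexes.

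Further down the list of the 15 largest differences stood Cyp3a44 (5.40 ± 0.34), the bile acid and steroid sulfotransferase Sult2a1 (4.73 ± 0.82), Cyp3a16 (3.98 ± 0.82), Hamp2, a homologue of the iron hormone hepcidin (3.89 ± 0.60), and Cyp17a1, a steroid hydroxylase and lyase (3.81 ± 0.40). Hamp2 was at 150, 113 and 55.3 RPKM in females and at 6.41, 2.96 and 9.20 in males. Cyp17a1 was at 26.9, 41.0 and 12.1 RPKM in females and at 0.533, 0.532 and 1.36 in males. The set closed with the acyl-CoA thioesterase Acot3 (3.63 ± 0.42), the hydroxy acid oxidase Hao3 (2.79 ± 0.30) and Npal1, whose current symbol is Nipal1 (2.72 ± 0.38). Adjusted p of these 8 genes ran up to 0.00948 (limma), for Cyp3a16.

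The steepest male transcripts were a pair of fatty acid hydroxylases, a urinary protein and a steroid enzyme. Cyp4a12a was at 143, 134 and 113 RPKM in males and at 0.135, 0 and 0.855 in females. Its copy Cyp4a12b was at 40.0, 37.4 and 35.1 RPKM in males and at 0.0136, 0.0287 and 0.0165 in females. CYP4A12 enzymes hydroxylate the end of fatty acid chains, including arachidonic acid. The log2 differences were -6.67 ± 0.27 and -5.24 ± 0.072, with adjusted p of 8.11e-09 and 2.78e-13 (limma). Mup2, a major urinary protein, was at 3591, 3216 and 2702 RPKM in males and at 41.9, 38.5 and 55.8 in females, a ratio of means of 69.8.

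Hsd3b5, a 3-keto-steroid reductase of male liver, was at 120, 98.5 and 59.1 RPKM in males and at 1.74, 0.0478 and 1.81 in females. Elovl3, which lengthens very long chain fatty acids, was at 189, 167 and 137 RPKM in males and at 3.46, 2.34 and 5.18 in females, 44.8 times lower by their means. Serpina1e, a copy of the alpha-1-antitrypsin gene, was at 2695, 3276 and 1198 RPKM in males and at 39.7, 95.0 and 67.1 in females. The log2 differences of these 3 genes were -5.48 ± 0.38, -5.18 ± 0.26 and -5.09 ± 0.38.

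The remaining 9 of the 15 genes with the largest male differences ranged from -4.74 ± 0.58 (the pseudogene Serpina4-ps1) to -2.36 ± 0.25 (an entry that joins Mup3 with another gene model). Between them were an entry of the steroid 16-alpha-hydroxylase Cyp2d9 joined with another transcript (-4.46 ± 0.24), the selenium-binding protein Selenbp2 (-4.39 ± 0.50), complement C6 (-3.15 ± 0.23), the glutathione transferase Gstp1 (-2.60 ± 0.23), the lipocalin Lcn13 (-2.56 ± 0.20), the oxysterol hydroxylase Cyp7b1 (-2.43 ± 0.24) and the organic anion carrier Slco1a1 (-2.42 ± 0.40). Gstp1 was at 576, 760 and 437 RPKM in males against 88.4, 101 and 94.1 in females. Lcn13 was listed at 0 in every female and at 4.06, 8.15 and 3.45 RPKM in males. Slco1a1, which takes up bile salts and steroid conjugates, was at 75.7, 66.5 and 53.2 RPKM in males and at 14.0, 4.34 and 21.7 in females. All 15 genes of each direction were called under all 15 alternatives to the processing.

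**Figure D2:**
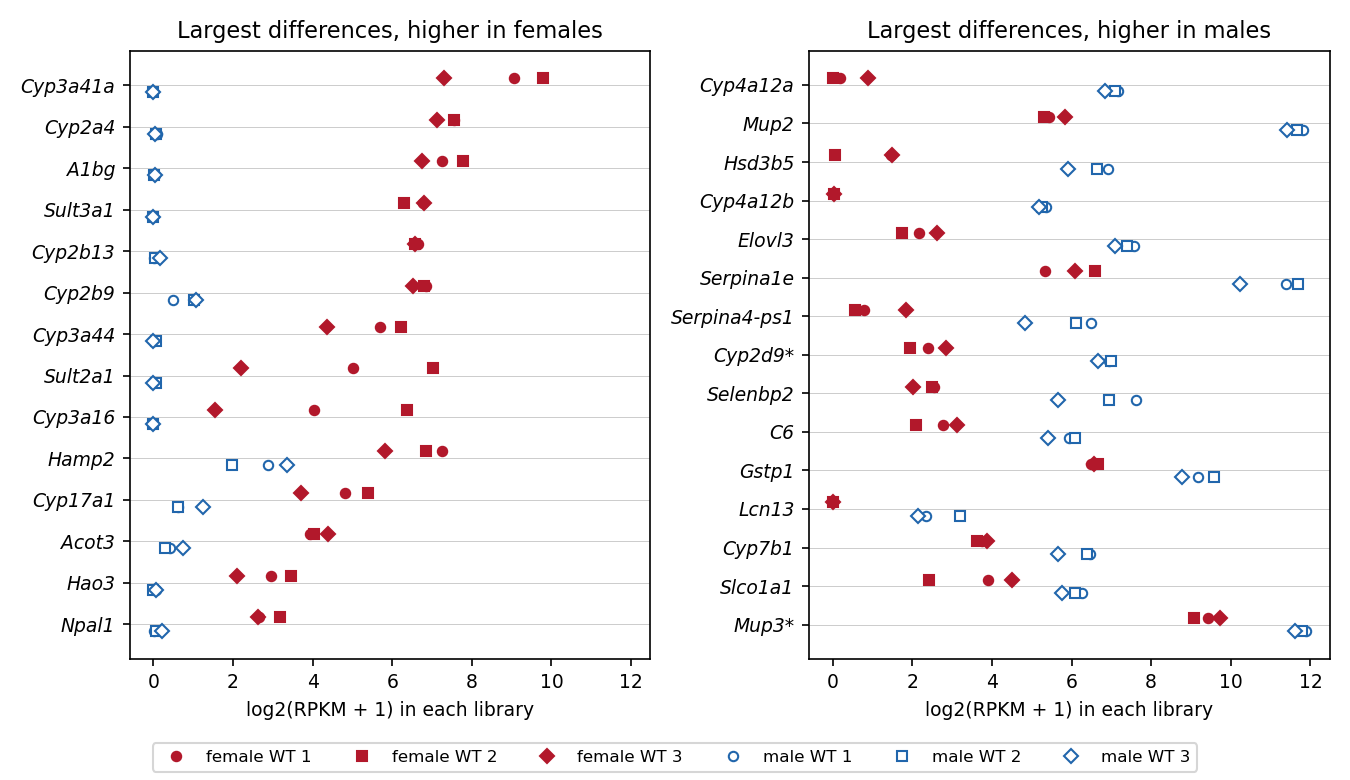
Levels in each library, as log2(RPKM + 1), of genes with the largest female difference (left) and genes with the largest male difference (right), with filled red symbols for the 3 female WT libraries, open blue symbols for the 3 male WT libraries and an asterisk for entries that join several genes. Genes were chosen so that red and blue symbols do not overlap, and female WT 3 lies lowest among the females for Cyp3a41a, Sult2a1 and Cyp3a16.

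Some genes were high in one sex and almost absent from the other. With a limit of at least 5 RPKM in every library of one sex and at most 0.1 RPKM in every library of the other, the autosomal entries on the female side included A1bg, Cyp2a4, Cyp3a41a, Cyp3a44, Sult3a1 and LOC100043194, which RefSeq now names Sult2a2. On the male side there was Cyp4a12b. These limits were chosen after the values were seen, and the entries are a description. Sult2a2 was at 40.1, 74.7 and 12.6 RPKM in females, and the highest male was at 0.0997.

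Some of the largest differences varied widely within a sex. Cyp3a16 was at 15.3, 82.2 and 1.91 RPKM in the 3 females, 43.0 times apart, and Sult2a1 at 31.5, 129 and 3.62 RPKM, 35.7 times apart. Cyp3a41a spanned 5.66-fold and Cyp3a44 3.80-fold. In all 4 genes female WT 2 was highest and female WT 3 lowest. Among males Selenbp2 was at 196, 122 and 49.3 RPKM, 3.97 times apart, and Serpina4-ps1 at 89.1, 67.8 and 27.3 RPKM, with male WT 1 highest and male WT 3 lowest. Over the 79 genes at least 1 higher in females the median ratio of highest to lowest female was 1.34, and over the 57 at least 1 higher in males the same ratio among males was 1.44. Female WT 3 was the lowest female for 40 of the 79 genes, and male WT 3 the lowest male for 38 of the 57.

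Called genes lay beside each other in the genome. Of the 948 calls, 304 (32.1%) had a called gene as the next tested entry on at least one side, against 18.1% of all tested autosomal genes, by the gene order of the GRCm38 annotation. The neighbour was called in the same direction for 243 genes and in the opposite direction for 69. Copies of one family that lie together share sequence, and their reads cannot always be told apart, so that levels of near-identical copies are uncertain.

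The Cyp2b and Cyp2a genes formed such a run. Cyp2b10, a target of the nuclear receptor CAR, was at 32.6 ± 7.45 RPKM (SD, n = 3) in females and 5.07 ± 0.763 in males. It was followed by Cyp2b13, Cyp2b9, Cyp2a4 and Cyp2g1, all called higher in females. Summed over the 5 matched Cyp2b entries, RPKM was 233 ± 21.4 in females and 5.96 ± 1.17 in males, a ratio of 39.2. An exact permutation test of 3 against 3 libraries gave p = 0.1 for this and for each other sum that did not overlap, the smallest it allows. The related Cyp2a5, a coumarin 7-hydroxylase, was at 237, 180 and 125 RPKM in females and at 112, 139 and 140 in males. Its sexes overlapped (0.43 ± 0.23, adjusted p = 0.259, limma), in contrast to Cyp2a4.

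The sequences before Cyp2a4 and Cyp2a5 are shown because their genes differ in sex bias while the sequences are nearly the same. Both are from RefSeq (GRCm38.p6), cover an aligned stretch just before each gene's start (for Cyp2a4 chr7:26306943-26307191 and for Cyp2a5 chr7:26835089-26835337, both on the plus strand), and are 98.4% identical. Capitals mark the 4 positions at which they differ.
Cyp2a4: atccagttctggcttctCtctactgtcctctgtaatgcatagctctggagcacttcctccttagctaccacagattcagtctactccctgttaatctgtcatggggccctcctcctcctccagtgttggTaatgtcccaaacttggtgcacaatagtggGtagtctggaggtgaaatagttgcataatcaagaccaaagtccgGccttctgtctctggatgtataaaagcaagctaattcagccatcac
Cyp2a5: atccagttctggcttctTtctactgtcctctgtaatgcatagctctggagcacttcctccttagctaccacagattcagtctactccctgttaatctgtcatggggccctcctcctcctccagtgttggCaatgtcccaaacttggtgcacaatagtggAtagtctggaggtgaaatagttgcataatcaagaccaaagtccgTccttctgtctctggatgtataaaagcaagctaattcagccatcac
Counted from 1 at the first base shown, with the Cyp2a4 base first, the differences are C18T, T130C, G160A and G204T. The promoters of Cyp2b9 and Cyp2b13, both higher in females, were 99.3% identical over the 300 bases in the table. Nothing in these libraries tests which of these bases matter.

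In the Cyp2c cluster 5 of 11 tested list members were called, all higher in females, and the other 6, among them the abundant Cyp2c29, were not called. Over all tested autosomal genes 6.71% were called higher in females, and of those between 100 and 1000 RPKM 31.8% were called in either direction. Cyp2c68 was at 227, 200 and 270 RPKM in females and at 57.3, 58.1 and 53.0 in males (2.02 ± 0.13, adjusted p = 9.35e-07). An entry that joins Cyp2c40 and Cyp2c67 differed by 2.14 ± 0.16, Cyp2c39 by 1.96 ± 0.12 and Cyp2c38 by 1.92 ± 0.26. Cyp2c37 was the most abundant called member, at 371 ± 35.5 RPKM in females and 181 ± 14.5 in males. Between them lay LOC100043108, named Cyp2c69 in RefSeq and singled out after its values were seen. It was at 326, 337 and 403 RPKM in females and at 0.817, 0.837 and 0.0899 in males, a difference of 7.85 ± 0.22 (adjusted p = 1.71e-10) that is larger than any but that of Cyp3a41a.

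Of 6 tested Cyp3a list members, Cyp3a16, Cyp3a41a and Cyp3a44 were called higher in females, beside 6.71% of all tested autosomal genes. The abundant Cyp3a11, the main CYP3A enzyme of adult liver, was at 411 ± 119 RPKM in females and 466 ± 23 in males (adjusted p = 0.678). Cyp3a25 and Cyp3a13 were also not called. LOC100041375, now Cyp3a41b, was at 1.04, 2.39 and 1.61 RPKM in females and listed at 0 in males. The promoters of Cyp3a41a, Cyp3a44 and Cyp3a16 were 92.3% to 94.6% identical.

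Members of a family or cluster did not always share a direction. Among the Cyp4a genes, Cyp4a12a and Cyp4a12b were higher in males, while the peroxisome proliferator targets Cyp4a10 and Cyp4a14 had higher means in females without being called (0.95 ± 0.37, adjusted p = 0.130, and 1.41 ± 0.43, adjusted p = 0.0591). Cyp4a14 was at 208, 178 and 347 RPKM in females and at 71.4, 58.1 and 161 in males, with no overlap. Among the organic anion carriers Slco1a1 was higher in males and Slco1a4 in females, at 28.3, 29.0 and 26.2 RPKM against 4.75, 5.07 and 6.45 in males (2.17 ± 0.13, adjusted p = 6.62e-07). Slco1b2, the main hepatic member, was at 168 ± 19.8 and 167 ± 4.48 RPKM.

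Among the Sult2a genes, Sult2a1, Sult2a2 and EG629219 (now Sult2a6) were higher in females. The next entry, 2810007J24Rik (now Sult2a8), was higher in males, at 246, 224 and 238 RPKM against 139, 128 and 177 in females (-0.68 ± 0.17, adjusted p = 0.0234). Next to Hsd3b5 lay a merged Hsd3b3 and Hsd3b2 entry, also higher in males (-0.78 ± 0.16), and Hao3, higher in females. Among the Serpina1 and Serpina3 inhibitors, Serpina1e, Serpina1c (-0.70 ± 0.11) and Serpina3k (-0.95) were higher in males. Serpina1a, Serpina1b and Serpina1d, all abundant, were not called, and the related inhibitor Serpina3m was higher in females (1.03 ± 0.14). Serpina1c lost its call after quantile normalization (adjusted p = 0.156). Serpina3k lost it there too, with no filter on low values, and without female WT 1 or male WT 1 (adjusted p up to 0.0995).

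The neighbouring flavin monooxygenase genes Fmo4, Fmo1 and Fmo2 were higher in females, by 0.93 ± 0.16, 1.17 ± 0.11 and 1.91 ± 0.12. Fmo5 had a lower mean in females, 59.2 ± 6.62 against 96.9 ± 12.5 RPKM, and was not called (adjusted p = 0.081), except after quantile normalization. All 3 tested Mup entries were called higher in males, beside 2.97% of all tested autosomal genes. Mup1 was at 5120, 4171 and 3425 RPKM in males and at 1298, 997 and 1687 in females (-1.69 ± 0.22). The 5 matched Mup entries summed to 10900 ± 1610 RPKM in males and 2060 ± 508 in females, 5.29 times lower, and took 5.35% to 7.07% of summed RPKM in males. Mup genes are many and nearly identical, so their division between entries is uncertain. LOC100041687 (now Mup8) and LOC100039177 (now Mup16) were higher in males as well.

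**Figure D3:**
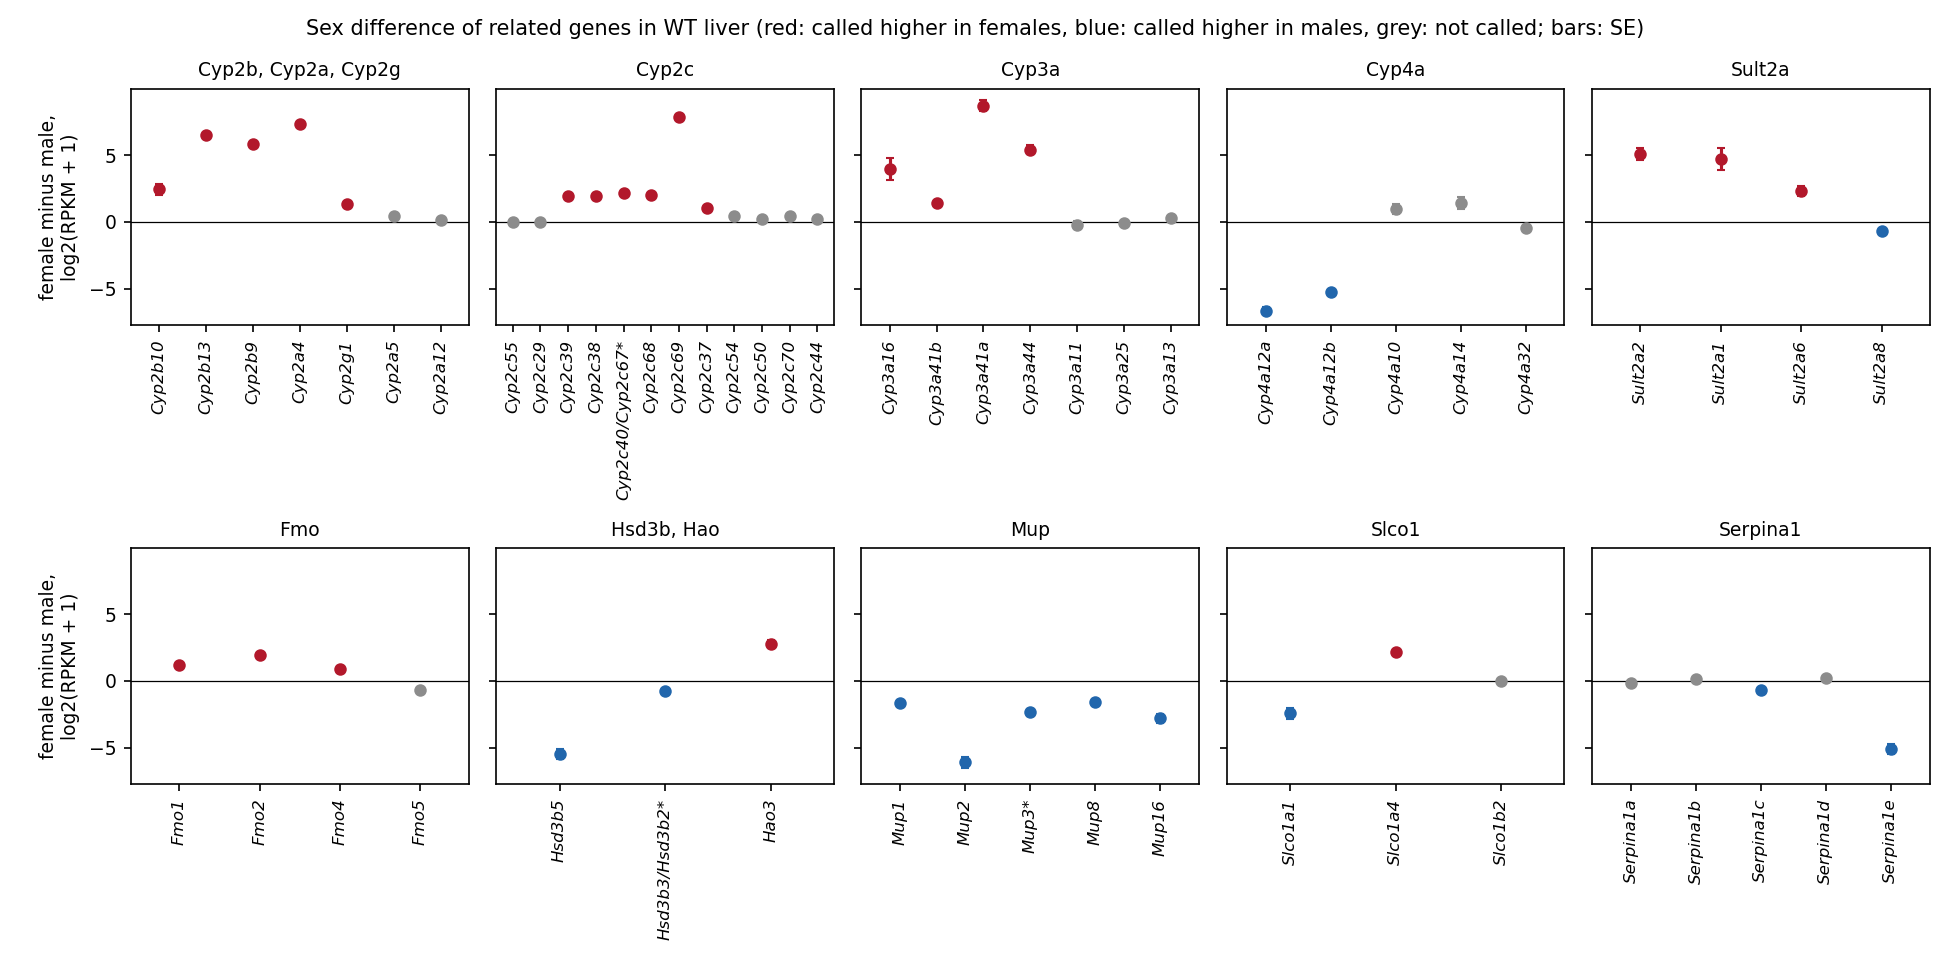
Female minus male difference in WT liver on the log2(RPKM + 1) scale for members of 10 gene families (limma estimate, bars are SE), coloured red or blue where called higher in females or males and grey where not called, with an asterisk for merged entries. Red and blue stand side by side in the Sult2a, Hsd3b and Hao, and Slco1 panels, while the Fmo, Cyp2c and Cyp3a panels hold red and grey points and the Mup panel blue points.

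Phase II enzymes differed in which sex they favoured. Of 7 tested sulfotransferases, 6 were higher in females and Sult1b1 was not called. Sult1a1, which sulfates phenols, was at 175 ± 18.6 RPKM in females and 72.5 ± 16.7 in males (1.28 ± 0.19, adjusted p = 0.00105). Of 11 UDP-glucuronosyltransferase entries, which join glucuronic acid to bilirubin, steroids and drugs, 3 were higher in males and 2 in females. Ugt2b38 was at 0.364 ± 0.292 RPKM in females and 5.69 ± 2.14 in males, and Ugt2b37 at 2.42 ± 0.81 and 0.524 ± 0.206. The female count of 2 was 1 without female WT 1 or male WT 3. Of 18 glutathione transferase entries, 5 were higher in females and 2, Gstp1 and Mgst1, in males. The count of 5 was 2 without female WT 1 or male WT 1 and 3 without male WT 2. Over all tested autosomal genes the shares called were 6.71% higher in females and 2.97% higher in males.

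Of 18 tested members of the growth hormone pathway, 2 were called, a share close to the 9.68% of all tested autosomal genes. Igfals, the acid-labile subunit that carries insulin-like growth factors in blood, was higher in females by 0.71 ± 0.15 (28.6 ± 0.768 against 17.1 ± 2.18 RPKM, adjusted p = 0.0124). Igfbp4, a binding protein of those growth factors, was higher by 0.36 ± 0.082 (adjusted p = 0.0158). Neither the receptor Ghr (27.8 ± 3.27 and 31.8 ± 0.997 RPKM, adjusted p = 0.216) nor Jak2, Stat5a, Stat5b or Igf1 was called. Cish, a STAT5-induced inhibitor of receptor signalling, was at 1.52, 0.819 and 1.79 RPKM in females and at 5.39, 3.82 and 3.72 in males. The groups did not overlap, but the difference of -1.17 ± 0.39 was not called (adjusted p = 0.083). Igfals lost its call without male WT 3 and Igfbp4 without male WT 1, while Cish was called with the 6 WT libraries fitted alone (adjusted p = 0.0035) and Ghr after quantile normalization (adjusted p = 0.0169).

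Of 23 tested transcription regulators linked to sex bias or to hepatocyte identity, 3 were called, all higher in females, again a share close to that of all tested genes. Cutl2, the table's name for the repressor Cux2, was at 1.45, 2.18 and 2.27 RPKM in females and at 0, 0.0179 and 0.0246 in males (1.54 ± 0.13, adjusted p = 9.87e-06). Trim24, a nuclear receptor coregulator, was at 2.92, 4.11 and 3.20 RPKM in females and at 0.601, 1.00 and 0.974 in males (1.24 ± 0.14, adjusted p = 0.000175). Nr1i3, which encodes the xenobiotic receptor CAR, was at 33.6, 34.5 and 43.7 RPKM in females and at 16, 19.1 and 18.2 in males (1.03 ± 0.15, adjusted p = 0.000996). Females lay above males in all 3 genes without overlap, as in 651 of all 657 genes called higher in females. The lack of overlap is therefore no further support.

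Several regulators had higher means in males without being called. Onecut1, which encodes HNF6, was at 11.9, 7.64 and 5.03 RPKM in males and at 1.78, 1.48 and 2.57 in females (-1.59 ± 0.47, adjusted p = 0.0534). Foxa1 was at 5.91, 4.88 and 3.20 RPKM in males and at 2.42, 1.59 and 2.80 in females (-0.78 ± 0.23, adjusted p = 0.0511). Both were called after median-of-ratios scaling, after quantile normalization and with the 6 WT libraries fitted alone, and Foxa1 also without male WT 3 and with a filter at 1 RPKM. The repressor Bcl6 was at 1.99, 1.5 and 0.755 RPKM in males and at 0.763, 0.704 and 0.591 in females, so that male WT 3 lay beside the females (-0.49 ± 0.42, adjusted p = 0.506). Hnf4a, Cebpa and Ppara were not called.

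Genes that sense or convert sex steroids were called in both directions, 6 of 23 tested higher in females and 5 higher in males. The shares over all tested autosomal genes were 6.71% and 2.97%. Esr1, the estrogen receptor, was at 2.05, 2.48 and 1.65 RPKM in females and at 0.579, 0.802 and 0.780 in males (0.83 ± 0.097, adjusted p = 0.000186). Among the enzymes, Cyp17a1, the steroid oxidoreductase Hsd17b6 (1.05 ± 0.24), the 5-beta-reductase Akr1d1 (0.87 ± 0.20) and the oxysterol hydroxylase Cyp39a1 (1.00 ± 0.23) were higher in females. The 5-alpha-reductase Srd5a1 (-0.83 ± 0.11), Hsd3b5, the merged Hsd3b3 and Hsd3b2 entry, Cyp7b1 and Hsd17b12 (-0.40 ± 0.088) were higher in males. The female count was 4 without female WT 1 or male WT 1. Hsd17b6 lost its call without female WT 1, female WT 3 or male WT 3, Akr1d1 without female WT 1, male WT 1 or male WT 2, and Cyp39a1 without female WT 3 or male WT 1, and all 3 lost it with no filter on low values. Hsd17b12 lost its call without male WT 1. Calls higher in males numbered 8 after median-of-ratios scaling and 8 after quantile normalization.

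Complement genes were called in both directions. Of 25 tested members, 6 were higher in females and 5 in males, beside 6.71% and 2.97% of all tested autosomal genes. Genes of the terminal complex, which forms the membrane pore, made up 4 of the 5. The terminal genes Hc, which encodes C5, and C8g were tested and not called, and C7 was below the filter. C6 was at 60.5, 66.8 and 41.5 RPKM in males and at 5.79, 3.25 and 7.74 in females. C8a was at 160, 206 and 131 RPKM in males against 41.1, 45.7 and 66.6 in females. C8b differed by -1.18 ± 0.19 and C9 by -1.33 ± 0.16, and the fifth gene was C4a (-1.40 ± 0.29). The male count was 5 without each single WT library. On the female side stood C3, the central component, at 1473, 1441 and 1596 RPKM against 729, 991 and 707 in males (0.91 ± 0.13), and the mannose-binding lectin Mbl2, at 201, 187 and 213 RPKM against 78.5, 77.4 and 76.5 (1.36 ± 0.11). The other 4 were Cfi, Cfp, which is X-linked, C1qb and C1qc, and the female count was 2 without female WT 1, female WT 3, male WT 1 or male WT 3. The terminal genes were singled out after the values were seen. Of 23 tested coagulation genes, 5 were higher in females, a count that was 2 without female WT 1, male WT 1 or male WT 3 and 3 without female WT 3.

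Of 26 tested enzymes of the urea cycle and amino acid breakdown, 8 were higher in females. Among all tested autosomal genes 6.71% were higher in females, and of those between 100 and 1000 RPKM 31.8% were called in either direction. Oat, which breaks down ornithine, was at 256, 229 and 246 RPKM in females and at 110, 137 and 154 in males (0.87 ± 0.15, adjusted p = 0.00304). Mat1a, which makes S-adenosylmethionine, differed by 0.84 ± 0.19 and Hpd, of tyrosine breakdown, by 0.72 ± 0.098. The count of 8 was 3 without male WT 1, 4 without female WT 1, 5 without male WT 2 and 5 after quantile normalization. The median over the list was 0.336, beside 0.0417 over all tested genes.

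Of 18 genes that mark hepatocytes around the central vein, 9 were higher in females (median 0.412), among them Oat, Lect2 (0.70 ± 0.12), the aryl hydrocarbon receptor Ahr (0.66 ± 0.15) and the glutamate carrier Slc1a2 (0.65 ± 0.12). That count was 4 without female WT 1 and 5 without male WT 1. Over all tested autosomal genes, 6.71% were called higher in females and 2.97% higher in males. Of 17 periportal genes, 5 were higher in females and Cyp2f2 was higher in males (-0.60 ± 0.11). Pck1, the first committed enzyme of gluconeogenesis, was at 183, 264 and 253 RPKM in females and at 87.7, 122 and 105 in males (1.14 ± 0.21, adjusted p = 0.0051). Both zonation lists had positive medians, and neither zone stood on the male side as a list.

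Of 32 tested genes of fatty acid oxidation, 3 were called higher in females, 1 higher in males and 28 were not called. Over all tested autosomal genes the shares were 6.71% higher in females and 2.97% higher in males. From the bile acid synthesis list, Scp2, a thiolase that shortens bile acid side chains, was at 556, 524 and 522 RPKM in males and at 243, 216 and 291 in females (-1.10 ± 0.13). The fatty acid importer Abcd2 was at 9.35, 10.3 and 10.1 RPKM in females and at 0.638, 0.813 and 0.641 in males (2.69 ± 0.27). The thioesterases Acot3 and Acot4 (1.63 ± 0.16) were higher in females too. C730036D15Rik (now Acnat2) and 1810022C23Rik (now Eci3), named after their values were seen, were higher in females by 2.43 ± 0.25 and 1.71 ± 0.26.

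Cholesterol synthesis turned on 1 library. Summed over 23 genes of synthesis and uptake, RPKM was 841 and 797 in female WT 1 and female WT 2 but 472 in female WT 3, within the male range of 450 to 580. Of the 23, 4 were called higher in females with all libraries (Pmvk, Cyp51, the regulator Srebf2 and the X-linked Ebp), and 20 without female WT 3. The count was 1 without female WT 1, female WT 2 or male WT 1 and 2 without male WT 2. Over all 9795 tested autosomal genes, 6.71% were called higher in females with all libraries, and 512 genes were without female WT 3. Sqle, which makes squalene epoxide, was at 11.8, 12.4 and 4.71 RPKM in females and at 4.35, 5.38 and 6.04 in males. Sqle was picked after its values were seen. The sum over libraries gave p = 0.3 by an exact permutation test (two-sided).

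Other metabolic genes stood out singly. The multidrug carrier Abcg2 was at 13.7, 12.3 and 10.6 RPKM in males and at 4.79, 4.26 and 4.92 in females (-1.22 ± 0.11). The carboxylesterase Es1 was at 686, 634 and 673 RPKM in females and at 329, 310 and 314 in males (1.06 ± 0.088, adjusted p = 1.01e-05). Transferrin (Trf) was at 2689, 2719 and 2689 RPKM in females and at 1554, 1773 and 1447 in males (0.77 ± 0.10). The cell cycle gene Ccnd1, which encodes cyclin D1, was at 12.7, 8.34 and 8.81 RPKM in females and at 1.65, 2.69 and 2.02 in males (1.80 ± 0.22), and the other 10 tested cell cycle genes were not called. Albumin differed by 0.66 ± 0.13. After quantile normalization its difference was 0, since it is the highest gene of every library.

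**Figure D4:**
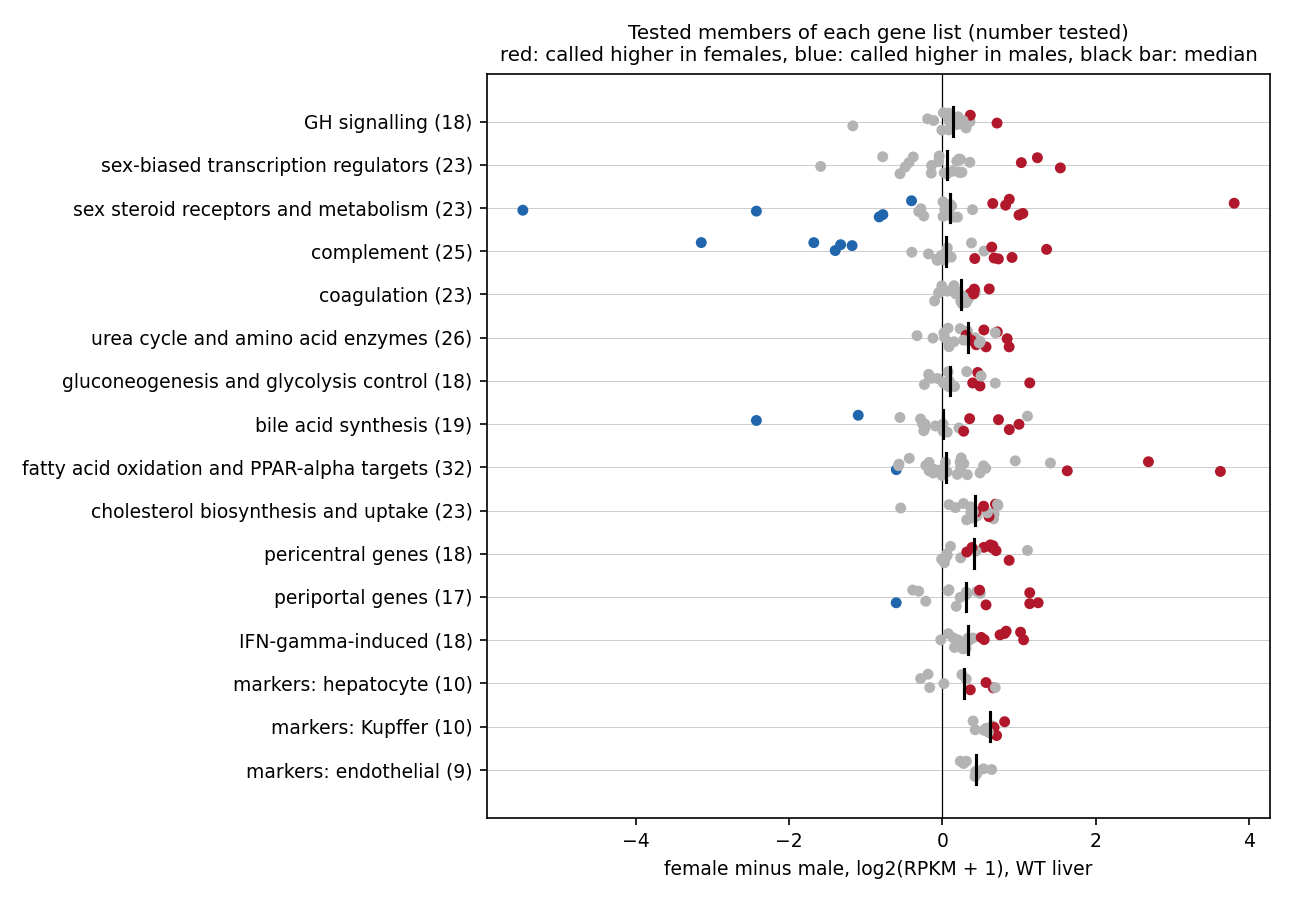
Female minus male difference in WT liver on the log2(RPKM + 1) scale for every tested member of 16 gene lists (number tested in parentheses), red or blue where called and grey where not, with the list median as a black bar. Medians lie between 0.00773 (bile acid synthesis) and 0.622 (Kupffer cell markers), and blue points are found in the steroid, complement, bile acid, fatty acid oxidation and periportal rows.

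Of 18 tested genes induced by IFN-gamma, 7 were higher in females, among them the guanylate-binding protein Gbp3 (3.62, 3.08 and 2.85 RPKM against 0.718, 1.42 and 0.943, a difference of 1.06 ± 0.16) and the GTPase Igtp (1.02 ± 0.19). The list summed to 105 ± 4.25 RPKM in females and 68.4 ± 12.5 in males. The count was 3 without female WT 1 or male WT 1 and 4 without female WT 3. Of all tested autosomal genes, 6.71% were called higher in females. Among 10 tested markers of Kupffer cells, the resident macrophages of liver, Clec4f, the X-linked Vsig4, C1qb and C1qc were higher in females, the list median was 0.622 and summed levels were 121 to 210 RPKM in females and 85.2 to 140 in males. Without female WT 1, female WT 3, male WT 1 or male WT 3 limma called 0 Kupffer markers, and without female WT 2 it called 8.

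Markers of other cells were read in the same way. Limma called 0 of 9 endothelial markers (2 at an unadjusted p under 0.05) with all libraries and 6 without female WT 2, and their sums were 32.7 to 71.0 RPKM in females and 29.6 to 39.5 in males. It also called 0 of 6 tested T and NK cell markers (1 at an unadjusted p under 0.05), with sums of 1.26 to 2.40 RPKM in females and 0.995 to 1.54 in males. Of 8 tested stellate cell markers, Ecm1 and Hgf were higher in females, a count that was 1 without female WT 1, male WT 1 or male WT 3. The share higher in females over all tested autosomal genes was 6.71%. The 1 tested acinar marker, Ela1, was higher in males but not called without female WT 1, male WT 1 or male WT 3. Of 2 tested erythroid markers, Alas2, which is X-linked, was higher in males (-2.27). The other, Hba-a1, went the other way (0.333) and was not called. Sums over the 3 matched erythroid entries overlapped, at 69.0 to 142 RPKM in females and 80.6 to 109 in males (p = 0.9, exact permutation test). The part of cell composition in the differences of C1qb, C1qc and the IFN-gamma-induced genes was not tested.

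Lists of genes known for sex bias in mouse liver, drawn up with these results known and so no independent evidence of direction, were read as a check of coverage. Of 36 tested female-biased genes, 27 were called higher in females and 9 were not called. Of 32 tested male-biased genes, 28 were called higher in males and 4 were not. The uncalled female-biased genes included Cyp2a5, Cyp4a14, Cd36 and Cyp26a1, the last with a lower mean in females (9.17 ± 4.92 against 28.7 ± 20.6 RPKM). The uncalled male-biased genes were Gstp2, Egfr, Uox and Bcl6. Together the 34 matched male-biased entries made up 7.5% to 10.4% of summed RPKM in males and 1.42% to 1.97% in females.

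Promoters of called genes were searched for short motifs of the factors named above, on both strands of the 300 bases from 250 before to 50 after each RefSeq start (GRCm38.p6). The motif TTCNNNGAA, the core bound by STAT5 and BCL6, was in 8.3% of all promoters in the table, in 6.85% of those of tested genes, in 6.85% of those of genes called higher in females and in 6.69% of those higher in males. The HNF6 and CUX2 core ATCAAT was in 7.54%, 4.08%, 7.0% and 5.63% of the same sets. For the FOXA core TGTTTAC the shares were 3.65%, 2.97%, 4.52% and 3.17%, and for the HNF4A core CAAAGTCCA 0.475%, 0.585%, 1.9% and 1.41%. Among differences of at least 1 on the log2 scale, with 75 female and 46 male promoters, ATCAAT was in 16% and 15.2%, TGTTTAC in 14.7% and 2.17%, CAAAGTCCA in 12% and 2.17%, and TTCNNNGAA in 9.33% and 8.7%. Matches of different motifs were counted without regard to overlap, near-identical copies were counted separately, and a match is a description of the letters, not a bound site.

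Sequences are shown for 3 of the genes with the largest female differences, since they hold the STAT5 and BCL6 core, each as the 250 bases before the start with the core in capitals.
A1bg: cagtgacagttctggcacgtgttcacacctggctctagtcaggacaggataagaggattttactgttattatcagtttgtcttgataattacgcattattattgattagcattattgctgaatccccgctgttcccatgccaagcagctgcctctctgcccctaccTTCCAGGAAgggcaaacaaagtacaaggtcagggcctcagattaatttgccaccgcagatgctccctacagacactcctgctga
Sult3a1: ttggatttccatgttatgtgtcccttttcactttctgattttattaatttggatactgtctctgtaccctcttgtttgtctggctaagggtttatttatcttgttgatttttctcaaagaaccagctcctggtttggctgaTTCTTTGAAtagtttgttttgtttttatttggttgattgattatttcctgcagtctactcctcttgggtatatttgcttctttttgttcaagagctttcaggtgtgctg
Hamp2: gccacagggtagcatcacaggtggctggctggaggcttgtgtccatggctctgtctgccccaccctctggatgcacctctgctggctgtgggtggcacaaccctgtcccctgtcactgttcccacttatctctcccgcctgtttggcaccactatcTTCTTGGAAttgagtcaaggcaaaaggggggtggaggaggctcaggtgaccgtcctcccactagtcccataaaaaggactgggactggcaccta
They lie at chr15:60921271-60921520 (minus strand), chr10:33857472-33857721 (plus strand) and chr7:30924182-30924431 (minus strand) of GRCm38.p6. The core begins 84, 109 and 94 bases before the start. It was not found in the windows of the other genes with the 15 largest differences in either direction for which the table had an entry. Among differences of at least 1 on the log2 scale, the core was about as frequent in female (9.33%) as in male (8.7%) promoters.

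For the other 3 motifs, Cyp3a41a and Mup2 are shown as genes high in opposite sexes, with matches in capitals.
Cyp3a41a: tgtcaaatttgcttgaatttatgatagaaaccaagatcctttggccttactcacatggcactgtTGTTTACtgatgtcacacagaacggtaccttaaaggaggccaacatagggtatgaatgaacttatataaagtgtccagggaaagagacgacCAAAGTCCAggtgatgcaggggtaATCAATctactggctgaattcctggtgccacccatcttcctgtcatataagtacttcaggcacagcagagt
Mup2: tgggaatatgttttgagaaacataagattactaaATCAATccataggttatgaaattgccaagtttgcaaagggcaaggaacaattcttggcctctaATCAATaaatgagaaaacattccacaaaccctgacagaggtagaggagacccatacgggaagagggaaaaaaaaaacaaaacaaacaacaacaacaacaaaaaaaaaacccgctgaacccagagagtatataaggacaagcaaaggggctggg
These are the 250 bases before each start, at chr5:145720137-145720386 and chr4:60139857-60140106 of GRCm38.p6, both on the minus strand. Cyp3a41a held 1 match to each of TGTTTAC, CAAAGTCCA and ATCAAT, and Mup2 held 2 matches to ATCAAT. Cyp3a16 held the same 3 motifs as Cyp3a41a, and Cyp3a44 held TGTTTAC and ATCAAT.

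The WT sex differences were set beside those in ARE-Del littermates, which are separate samples. In ARE-Del livers 2197 autosomal genes (22.4%) were called between the sexes. Of the 657 WT calls higher in females, 629 (95.7%) had the same sign in ARE-Del and 407 (61.9%) were called the same way. Of the 291 higher in males, 274 (94.2%) had the same sign and 183 (62.9%) were called the same way. The library labelled female ARE-Del 2 had Xist at 0.0456 RPKM and Ddx3y listed at 0, so that its sex could not be read from these genes. Without it 395 of the female and 157 of the male WT calls were called the same way.

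A test of the difference between the 2 sex contrasts (the interaction of sex and genotype) called 56 autosomal genes, 0.572% of those tested. This count ran from 10 to 33 when each WT library was left out in turn and was 13 with a pseudocount of 0.1. Among the WT calls, 9 of the 657 and 13 of the 291 had a called interaction. Serpina1e had the largest: its sex difference was -5.09 in WT and -1.60 in ARE-Del, with female means of 67.3 and 1173 RPKM and male means of 2389 and 3635. Clstn3, a calsyntenin, was at 2.87 RPKM in male WT and 0.357 in female WT, while both ARE-Del groups were below 0.3 (interaction -1.35 ± 0.12, adjusted p = 0.00082). It reached 0.5 RPKM only in male WT and so passed the filter through that group alone. The merged Mup3 entry differed more in ARE-Del (-4.26) than in WT (-2.36). Cyp1a2, which metabolizes caffeine, was higher in females in WT (0.62 ± 0.14) and had the opposite sign in ARE-Del (-0.48), an interaction of 1.10 ± 0.19 (adjusted p = 0.0378).

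**Figure D5:**
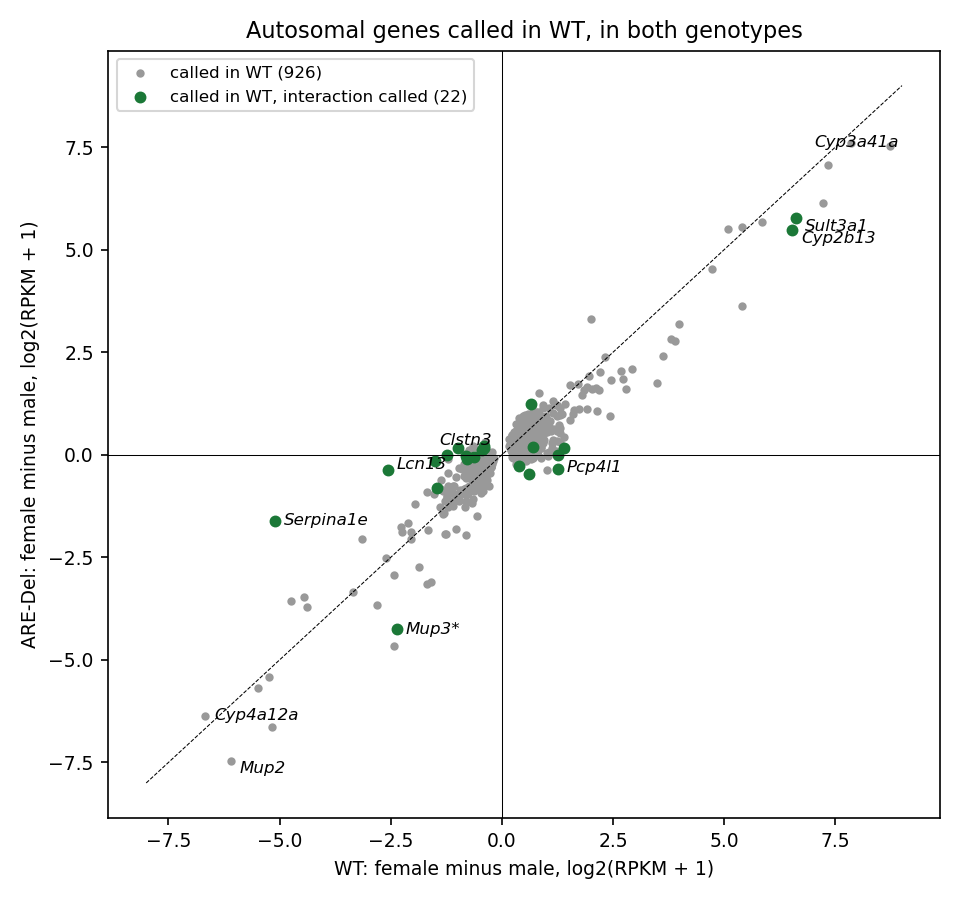
Female minus male difference on the log2(RPKM + 1) scale in WT (x axis) and ARE-Del (y axis) livers for the 948 autosomal genes called in WT, with the dashed line marking equal differences and green points the 22 genes with a called interaction. Most points have the same sign on both axes, and Serpina1e and Lcn13 lie well above the dashed line.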

How the data were processed

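The authors deposited RPKM values, per the file headers, for 12 liver libraries prepared with an Illumina TruSeq RNA kit, per the labels. Per the submitters' processing notes, Trimmomatic 0.30, TopHat2 2.0.8, Partek and GenomeStudio 6.6 were used with the mm9 build. The counting rule, its use of strand and the read totals were not given in the sources used here, so near-identical or overlapping genes may share reads and no counting intervals were computed. Of 19852 entries, 430 join at least 2 symbols. Entries were placed on chromosomes by name with RefSeq GRCm38.p6 tables, and 2777 did not match.

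A gene was tested where 3 or more of the 12 libraries reached 0.5 RPKM. A low gene can pass through the sex in which it is high. Log2(RPKM + 1) was fitted as 4 group means with limma 3.58.1 in R 4.3.3 (trended variances, Benjamini-Hochberg, threshold 0.05), with contrasts for sex in WT, sex in ARE-Del and their interaction, checked on simulated data. Differences on this scale understate ratios of low genes. Errors are SE for log2 differences and SD over 3 libraries for RPKM. Family sums were compared by exact permutation (two-sided). Other steps used pandas 2.3.3, numpy 2.4.6 and matplotlib 3.10.9 under Python 3.11.15. Alternatives were another pseudocount, filters, scalings, variance model, the 6 WT libraries alone, a replicate block and leaving out libraries.

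The genes and 61 lists were chosen with earlier results of these data known. The naming rule takes the 15 called, non-overlapping autosomal genes with ordinary names and the largest difference each way, up to 4 called members of each list (filled up to 2 by level), the tested regulator, growth hormone and steroid lists, the 6 genes each way with the smallest interaction p, sex-chromosome checks, and family members in a cluster where directions differ. Not all are printed, and some genes are not reported here. Chosen outside it, with their values seen, were Sqle, Cyp2g1, Cyp2c29, Cyp2c37, Cyp3a11, Cyp3a13, Cyp3a25, Cyp2a5, Sult1b1, Mgst1, Fmo5, C3, C7, C8b, C8g, C9, Hc, Cfi, Cfp, Cd36, Cyp26a1, Gstp2, Egfr, Uox, entries with locus or clone names and the remaining genes with a called interaction.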

Additional observations from a re-analysis of the deposited data

Results flagged for a closer look

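In the following autosomal genes with ordinary names that were called between the sexes in WT, the sex difference also differed between WT and ARE-Del by the test of the interaction (limma, adjusted p under 0.05). The values are the WT difference minus the ARE-Del difference on the log2 scale. Male excess was larger in WT for Serpina1e (-3.49), Lcn13 (-2.18), Clstn3 (-1.35), Cd1d2 (-1.21), Raet1e (-1.14), Tsc22d1 (-0.77), Mtnr1a (-0.70), Cyp2u1 (-0.65), Ermp1 (-0.60), Unc119 (-0.56) and Aatk (-0.56). Female excess was larger in WT for Pcp4l1 (1.26), Cyp1a2 (1.10), Cyp2b13 (1.05), Sult3a1 (0.85) and St3gal6 (0.51). Some of these had no excess of that sex in ARE-Del. The ARE-Del difference was 0.16 for Raet1e, 0.20 for Ermp1, 0.16 for Unc119 and 0.11 for Aatk. It was -0.48 for Cyp1a2 and -0.0068 for Pcp4l1. For the entry that joins Mup3 with another model (Mup3andOTTMUSG00000007485) the value was 1.89, with the larger male excess in ARE-Del. Without the library labelled female ARE-Del 2, adjusted p was 0.050 for Cyp1a2, 0.0591 for Cd1d2, 0.0591 for Sult3a1 and 0.0684 for Cyp2u1, and the others named here stayed under 0.05. Clstn3, Lcn13, Mtnr1a, Aatk and Cd1d2 reached 0.5 RPKM only in male WT, and St3gal6 only in female WT. These genes passed the filter through that group alone, which favours the direction listed, so their values are a description. Groups of 3 are too small for a search for single outlying libraries.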

How the results depend on the processing

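Of 146 named genes called in WT, 102 were called in all 15 alternatives, 44 lost the call in at least 1 and none changed sign; of 48 named genes not called, 10 were called in at least 1. Calls higher in males were 626 after median-of-ratios scaling and 749 after quantile normalization, against 291; the cause was not tested. Leaving out a WT library in turn gave 488 to 1033 calls in all, 305 to 842 higher in females and 183 to 236 higher in males, and leaving out female ARE-Del 2 gave 299 higher in males. The interaction count of 56 was 13 with a pseudocount of 0.1, 26 with no filter, 28 with a filter at 1 RPKM, 95 after quantile normalization, 30 with the replicate block and 35 with no trend in the variances. It was 10 to 33 leaving out a WT library and 61 without female ARE-Del 2; for these too the cause was not tested. The ARE-Del count of 2197 stayed within 1813 to 2782.

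With the replicate number as a block, 771 WT genes were called, 536 higher in females and 235 in males. No pairing by number was seen: deviations of same-numbered WT libraries of the 2 sexes correlated at -0.0524, 0.0156 and -0.291. Those with different numbers ran from -0.179 to 0.229. With 3 libraries in a group, these values are too few to exclude a pairing. With unknown read totals, levels below about 0.1 RPKM carry little weight.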
